A study of Homo sapiens with 6 samples.

Results

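Haem is made and broken down by a short chain of enzymes, and 10 genes of that chain were followed here in OE33 cells, a human line established from an adenocarcinoma of the oesophagus. They were HMOX1, HMOX2, BLVRA and BLVRB for breakdown, ALAS1, ALAD, UROD, CPOX and FECH for synthesis, and FLVCR1, a haem exporter of the cell surface and so not an enzyme. Members were found by matching their symbols to Ensembl IDs in GENCODE 29, and all 10 were among the 58051 genes of the count table. All 10 also passed the filter on low counts, which left 14773 genes for testing. The cells had either received 15 µM APX2009 for 24 h (3 libraries) or no treatment (3 libraries). APX2009 is a small molecule described as an inhibitor of the redox function of APE1. The untreated cells are not labelled as having had a vehicle, the replicates of each group are described as biological ones, and all 6 libraries come from the same line. In such bulk samples fewer cells that express a gene and less RNA per cell cannot be told apart.

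Synthesis starts in the mitochondrion, where ALAS1 makes aminolaevulinic acid, the step that limits the rate in most cells. It passes through the cytosol, where ALAD and UROD act, and returns to the mitochondrial envelope with CPOX and then FECH, which inserts iron into protoporphyrin. Haem oxygenases, the inducible HMOX1 and the constitutive HMOX2, open the ring to give biliverdin, carbon monoxide and iron, and biliverdin reductases then form bilirubin. HMOX1 is a classical target of NRF2 and a gene repressed by BACH1, and its induction marks oxidative, electrophile and metal stress in many cell types.

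After exposure to APX2009 the chain moved unevenly. HMOX1 rose 52.1-fold and FECH, the last enzyme of synthesis, 4.10-fold, while ALAS1, the first, was 1.33-fold lower. CPOX and ALAD rose 1.30-fold and 1.27-fold, and FLVCR1 rose 1.21-fold with an adjusted p at the edge of the threshold. HMOX2, BLVRA, BLVRB and UROD did not pass the test. A gene is said to have passed, or been called, at an adjusted p under 0.05 in edgeR's quasi-likelihood test over all tested genes. By that rule 6 of the 10 were called, 5 higher and 1 lower, in a comparison that called 34.7% of all tested genes, 17.2% higher and 17.4% lower. That is 2543 genes higher and 2576 lower, and with libraries scaled by the ERCC total it was 129 higher and 7 lower. The median log2 change was 0.17 over the 10 and 0.02 over all tested genes. A rise of at least 4-fold was called for 2 of the 10, against 0.67% of all tested genes. FECH was close to that limit, at 3.84-fold without APX2009 replicate 3 and at a log2 change of 1.98 without untreated replicate 1, so either omission leaves 1 of the 10. The groups did not overlap in 6 of the 10, against 49.4% of all tested genes.

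The libraries held 21158750 to 26111656 gene counts in APX2009 cells and 22443569 to 25093753 in untreated cells. APX2009 replicate 1 stood apart: it had counts in 25015 genes, against 21845 to 22446 in the other 5 libraries, and 0.315% of its counts were ERCC spike-ins, against 0.48% to 0.752%. It also held counts for all 4 fibroblast and all 3 endothelial markers, whose sums were 18.7 and 1.91 CPM (gene counts scaled to a common library size) there. In the other 2 APX2009 libraries the sums were at most 10.4 and 0.0958 CPM, and in untreated cells at most 12.6 and 0.362 CPM. Epithelial markers summed to 13200 to 16580 CPM in APX2009 cells and 24450 to 25140 CPM in untreated cells, with EPCAM not called and KRT8, KRT18, KRT19 and CDH1 called lower. Leukocyte markers summed to 6.90 to 7.98 CPM in APX2009 cells and 6.13 to 6.83 CPM in untreated cells, with CD68 called higher. The part of these shifts in the results was not tested, and values without APX2009 replicate 1 are given with each called member. Erythroid markers, ALAS2 and the globins among them, summed to at most 0.3 CPM in APX2009 cells and 0.489 CPM in untreated cells, so ALAS1 was the form of the enzyme that these libraries hold. APEX1, which encodes APE1, averaged 173.0 ± 6.70 CPM in APX2009 cells and 180.5 ± 3.48 CPM in untreated cells (SD, n = 3 each; edgeR adjusted p = 0.469).

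HMOX1 (ENSG00000100292) lies on chromosome 22 from 35380361 to 35394214, plus strand, in GRCh38. It had 6137, 5452 and 9515 counts in APX2009 replicates 1, 2 and 3, and 136, 141 and 136 counts in the untreated replicates. As CPM scaled by TMM these were 229.8, 242.3 and 455.8 in APX2009 cells and 6.08, 5.66 and 6.05 in untreated cells. Every treated library was far above every untreated one, the first 2 treated libraries were alike, and the third stood at nearly double their level. The log2 change was 5.70 ± 0.28 (SE; edgeR adjusted p = 5.65e-07), with a 95% interval of 33.8-fold to 80.5-fold. A change of this size or larger, in either direction, was fitted for 0.0271% of tested genes. Without APX2009 replicate 1 the log2 change was 5.88, and without APX2009 replicate 3 it was 5.31, or 39.7-fold.

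**Figure D1:**
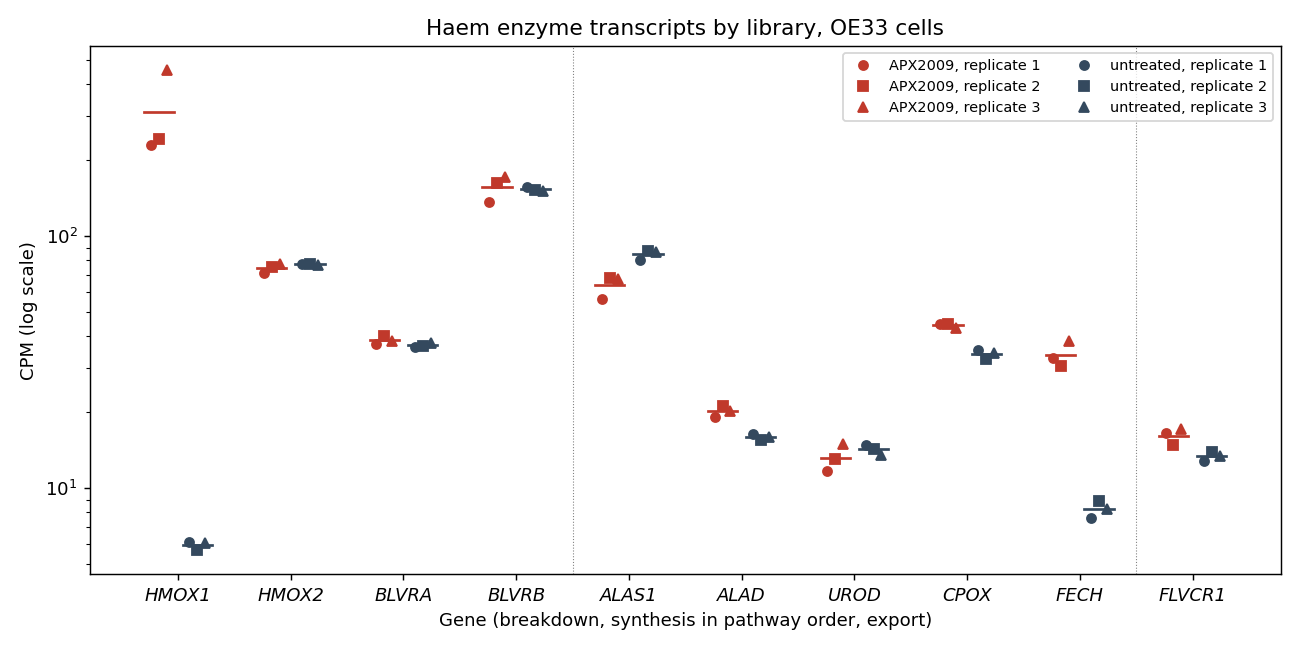
Transcript level of the 10 haem genes in each library, as CPM on a log axis, with APX2009 libraries in red on the left of each gene and untreated libraries in dark blue on the right; bars mark group means (n = 3 each). HMOX1 and FECH show the widest gaps between groups, ALAS1 lies lower in all 3 APX2009 libraries, and HMOX2, BLVRA, BLVRB and UROD overlap.

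The spread of HMOX1 among treated libraries was the widest of the 10 genes. Its APX2009 values spanned 0.99 on the log2 CPM scale, a ratio of 1.98 between the highest and the lowest library, against 0.10 and a ratio of 1.07 in untreated cells. The coefficient of variation was 41.1% in APX2009 cells and 3.92% in untreated cells. Among the 9773 tested genes whose mean log2 CPM was 3 or more, a range this wide in APX2009 cells was seen for 33 genes, or 0.338%, HMOX1 included. Over all 14773 tested genes the share was 5.67%. Among the 173 genes at that level with a log2 change of at least 1 it was seen for 13, and among the 99 genes called at least 4-fold higher for 36. Of those 99 genes, 56 were highest in APX2009 replicate 1, the library that stood apart. Counting error is far smaller: HMOX1 took 0.0235% (95% Wilson interval 0.0229% to 0.0241%), 0.0243% (0.0236% to 0.0249%) and 0.0450% (0.0441% to 0.0459%) of gene counts in APX2009 replicates 1, 2 and 3. These intervals cover counting error only. The first 2 intervals overlap and the third lies apart, so the spread of HMOX1 came from APX2009 replicate 3, and without that library its range was 0.077 on the log2 scale.

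The other 9 members did not show this pattern. Their APX2009 libraries differed by 1.03-fold for CPOX to 1.28-fold for UROD, and their untreated libraries by 1.00-fold for HMOX2 to 1.17-fold for FECH. APX2009 replicate 3 was the highest treated library for 6 of the 10 members, among them HMOX1 and FECH, and for 34.6% of all tested genes. A ratio of replicate 3 to the mean of the other 2 treated libraries as large as that of HMOX1, 1.93, was found in 2 of the 9773 genes at this level, HMOX1 being 1 of them. It was found in 72 of all 14773 tested genes, in 2 of the 173 genes at this level with a log2 change of at least 1, and in 4 of the 99 called at least 4-fold higher.

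Library by library, the rise of HMOX1 was set beside that of 20 regulators and stress genes from a list made for this purpose, of which 17 were called higher, 1 lower and 2 were not called, against 17.2% and 17.4% of all tested genes called higher and lower. The list was chosen with the rise of many of its genes known, so its count supports nothing by itself. HMOX1 stood at 38.8, 40.9 and 76.8 times the untreated mean in APX2009 replicates 1, 2 and 3. HSPA6, a strictly inducible HSP70 chaperone, stood at 28.6, 33.9 and 83.1 times, again highest in replicate 3. The chaperone and co-chaperone genes HSPA1A, HSPA1B, DNAJB1 and BAG3 had ratios of replicate 3 to the mean of the other 2 of 1.61, 1.57, 1.46 and 1.70. Among genes of the glutathione and thioredoxin systems this ratio was 1.10 for GCLM, 1.16 for TXNRD1 and 0.88 for SLC7A11, but 1.48 for the sulfiredoxin gene SRXN1. NQO1, a quinone reductase, and the ferritin genes FTH1 and FTL had ratios of 1.20, 1.17 and 1.31. Replicate 3 was the highest treated library for 17 of the 20. It was also highest for 94 of the 173 genes at the level given above with a log2 change of at least 1 (54.3%). Among the 99 called at least 4-fold higher it was highest for 35 (35.4%), and APX2009 replicate 1, which stood apart, for 56. HSPA6, with a ratio of 2.66, was the only gene of the 20 to exceed HMOX1.

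**Figure D2:**
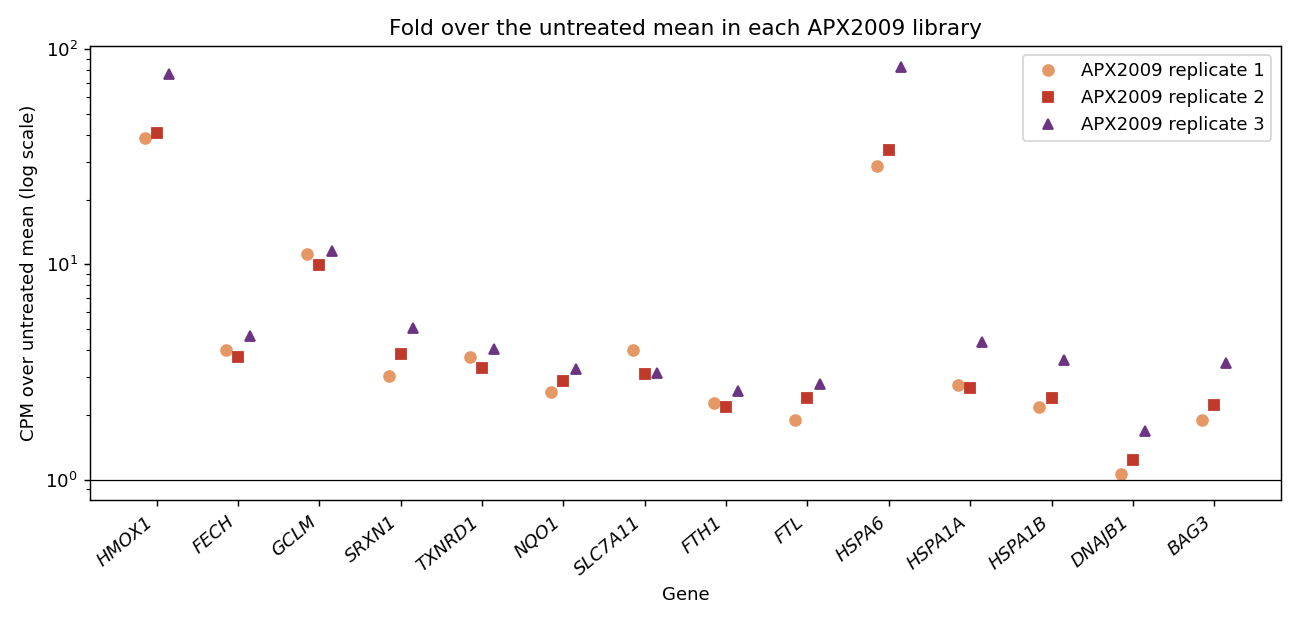
CPM in each APX2009 library divided by the untreated mean (log axis) for HMOX1, FECH and 12 stress genes. In replicate 3, HMOX1 at 76.8 and HSPA6 at 83.1 times the untreated mean stand well above their other 2 libraries, whereas GCLM lies between 9.89 and 11.6 times in all 3.

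Of the factors that act on HMOX1, NFE2L2 (NRF2) averaged 181.1 ± 9.45 CPM in APX2009 cells and 146.4 ± 6.06 CPM in untreated cells (SD, n = 3 each). It was 0.31 ± 0.07 higher on the log2 scale (SE; edgeR adjusted p = 0.00559). The NRF2 partner gene MAFG rose 1.92-fold, MAFF 1.44-fold and the NRF2 inhibitor gene KEAP1 1.53-fold, while BACH1, the haem-sensing repressor, did not pass (edgeR adjusted p = 0.232). Another partner gene, MAFK, did not pass either (edgeR adjusted p = 0.0927), and ATF4, a factor of the integrated stress response, was 0.32 higher on the log2 scale. HSF1, the heat shock factor gene, was lower, at 226.0 ± 22.7 CPM in APX2009 cells and 267.5 ± 7.85 CPM in untreated cells (SD, n = 3 each; edgeR adjusted p = 0.0397). It stood at 0.751, 0.867 and 0.917 times the untreated mean in APX2009 replicates 1, 2 and 3, lowest in the library that stood apart.

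Tested genes, 14773 in all, were ranked by Euclidean distance to HMOX1 over the 6 libraries, on log2 CPM deviations from the untreated mean. The nearest were HSPA6 (distance 0.67), AKR1C1 (1.21), the pseudogene HSPA7 (2.08), AKR1C3 (2.56) and KIAA0319 (2.78). This distance also takes in the size of the rise, so a near gene need not share the higher level of HMOX1 in replicate 3. HSPA7 is nearly identical to HSPA6 in sequence, so its counts are uncertain. Within the 3 APX2009 libraries alone, taken as deviations from their own mean, the nearest of 173 genes with a log2 change of at least 1 were BAG3 (0.18), ZFAND2A (0.22), HSPA1A (0.23), HSPA1B (0.25) and JUN (0.25). HSPA1A and HSPA1B share most of their sequence, so reads of the 2 cannot be told apart with certainty. These distances are descriptions over 6 and 3 libraries and carry no test.

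HMOX2 encodes the constitutive haem oxygenase (ENSG00000103415, chromosome 16, 4474690 to 4510347, plus strand). Its CPM were 71.5, 75.5 and 77.7 in APX2009 cells and 77.2, 77.2 and 76.9 in untreated cells. The groups overlapped, and the log2 change was -0.04 ± 0.06 (SE; edgeR adjusted p = 0.619), with a 95% interval of 0.886-fold to 1.07-fold. Of its exon bases 6.01% are shared with NMRAL1 on the other strand, a gene that was not called either (edgeR adjusted p = 0.257). Per kilobase of exon, HMOX1 stood at 5.07, 5.06 and 9.25 times the level of HMOX2 in the APX2009 libraries and at 0.124, 0.116 and 0.124 times in the untreated ones, so the order of both oxygenase transcripts turned in every library.

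The genes of the reductases that act on biliverdin were not called. BLVRA encodes biliverdin reductase A, which makes bilirubin in adult tissue (ENSG00000106605, chromosome 7, 43758680 to 43807342, plus strand). It had 37.1, 40.3 and 38.2 CPM in APX2009 cells and 36.4, 36.6 and 37.6 CPM in untreated cells, with an estimate of 0.06 ± 0.07 on the log2 scale (SE; edgeR adjusted p = 0.489; 95% interval 0.945-fold to 1.16-fold). BLVRB encodes biliverdin reductase B, also known as flavin reductase (ENSG00000090013, chromosome 19, 40447765 to 40465840, minus strand). It had 136.4, 162.4 and 171.0 CPM in APX2009 cells and 156.5, 152.7 and 150.8 CPM in untreated cells. The treated values lie on both sides of the untreated ones, and the estimate was 0.03 ± 0.08 on the log2 scale (SE; edgeR adjusted p = 0.812; 95% interval 0.896-fold to 1.16-fold).

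**Figure D3:**
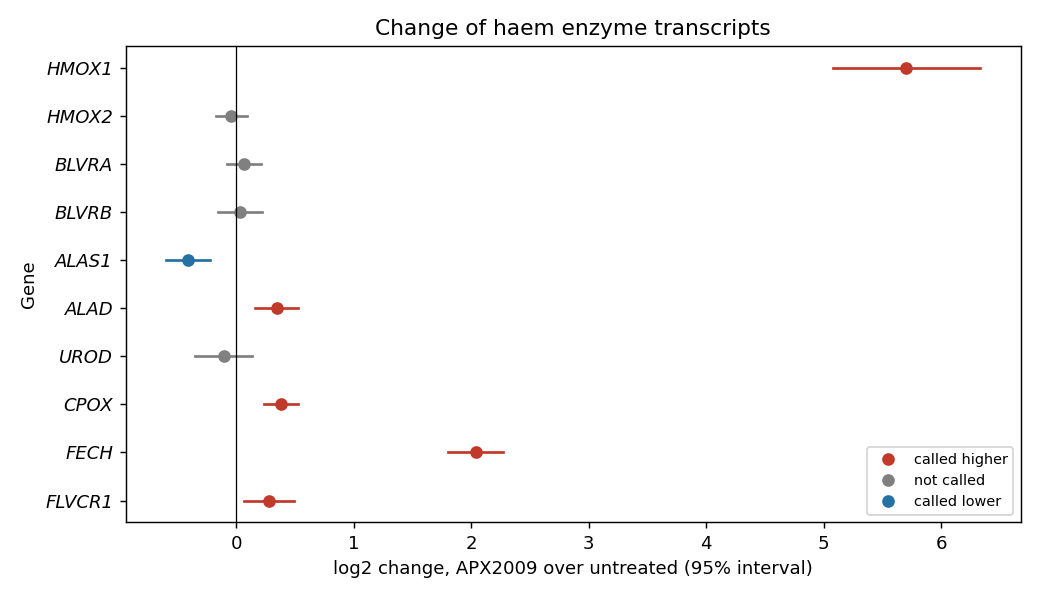
Log2 change of the 10 haem genes, APX2009 over untreated, with 95% intervals from edgeR's quasi-likelihood fit; red marks genes called higher, blue called lower and grey not called. HMOX1 at 5.70 and FECH at 2.04 lie apart from the other 8, which all fall between -0.41 and 0.38.

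In synthesis, the first and the last step moved in opposite directions. ALAS1 (ENSG00000023330, chromosome 3, 52198086 to 52214327, plus strand) had 56.2, 68.3 and 67.2 CPM in APX2009 cells and 80.6, 87.6 and 86.8 CPM in untreated cells. All treated values were below all untreated ones, with the lowest in APX2009 replicate 1. The log2 change was -0.41 ± 0.08 (SE; edgeR adjusted p = 0.00349), and -0.33 without APX2009 replicate 1 (edgeR adjusted p = 8.68e-04).

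FECH, ferrochelatase (ENSG00000066926, chromosome 18, 57548283 to 57586772, minus strand), had 879, 686 and 796 counts in APX2009 cells and 170, 221 and 185 counts in untreated cells. Its CPM were 32.9, 30.5 and 38.1 in APX2009 cells and 7.60, 8.88 and 8.23 in untreated cells. The groups were far apart, although the untreated libraries of FECH spread more than those of any other member. The log2 change was 2.04 ± 0.11 (SE; edgeR adjusted p = 8.03e-07; 95% interval 3.48-fold to 4.84-fold), and 2.05 without APX2009 replicate 1. A change of this size or larger in either direction was fitted for 0.806% of tested genes. Its processed pseudogene FECHP1 had 0 counts in all 6 libraries. Per kilobase of exon, FECH stood at 0.332, 0.253 and 0.322 times the level of ALAS1 in APX2009 libraries and at 0.0535, 0.0575 and 0.0538 times in untreated ones.

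Windows of 250 bases before the RefSeq start (GRCh38.p14) were searched on both strands for 5 motifs. The table matched 9 of the 10 members, all but HMOX1, with 11 windows since HMOX2 and ALAD have 2 starts each. The antioxidant response element core TGACNNNGC, the sequence NRF2 binds, was found in 1 of the 11 windows, that of FECH, and in 10.9% of all 35116 windows. None of the 11 held the AP-1 motif TGAGTCA (4.2% of all windows), the heat shock element core GAANNTTC (5.78%) or the NRF1 motif (5.07%). GC boxes, GGGCGG, stood in at least 1 window of each of the 9 members, in both ALAD windows but only 1 of the 2 HMOX2 windows. Of all windows, 42.6% held a GC box. Sequence is shown for FECH, the synthesis gene that rose most, around its antioxidant response element core alone and without its 2 GC boxes, and for ALAS1, the one that fell, with both GC boxes; in these windows no match of 1 motif overlapped another. The FECH match lies 38 to 30 bases before the start on the opposite strand to the gene, within chr18:57586722-57586751 (minus strand), in sequence that GENCODE 29 already counts as exon. The ALAS1 window is chr3:52197833-52198082 (plus strand). Capitals mark the antioxidant response element core in FECH and the 2 GC boxes in ALAS1, both read on their opposite strand.
FECH: gccgggagggcGCGAGGTCAgggggctggg
ALAS1: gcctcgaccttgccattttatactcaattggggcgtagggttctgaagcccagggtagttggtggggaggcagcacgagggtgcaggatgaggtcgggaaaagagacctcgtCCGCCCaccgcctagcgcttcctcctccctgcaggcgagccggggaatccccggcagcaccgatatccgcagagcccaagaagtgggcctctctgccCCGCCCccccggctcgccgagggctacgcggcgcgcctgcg
A match of letters is a description and not a shown binding site.

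Of the enzymes between them, ALAD and CPOX rose and UROD was not called. ALAD, which joins aminolaevulinic acid into porphobilinogen (ENSG00000148218, chromosome 9, 113386317 to 113401333, minus strand), had 19.2, 21.2 and 20.2 CPM in APX2009 cells and 16.4, 15.5 and 15.9 CPM in untreated cells. It was higher in every treated library, by 0.34 ± 0.08 on the log2 scale (SE; edgeR adjusted p = 0.00939), and by 0.38 without APX2009 replicate 1. UROD, uroporphyrinogen decarboxylase (ENSG00000126088, chromosome 1, 45012147 to 45015575, plus strand), had 11.7, 13.1 and 14.9 CPM in APX2009 cells and 14.8, 14.3 and 13.6 CPM in untreated cells. The groups overlapped, and the estimate was -0.11 ± 0.11 on the log2 scale (SE; edgeR adjusted p = 0.472; 95% interval 0.782-fold to 1.10-fold).

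CPOX, coproporphyrinogen oxidase (ENSG00000080819, chromosome 3, 98579446 to 98593723, minus strand), had 44.7, 44.7 and 43.3 CPM in APX2009 cells and 35.4, 32.4 and 34.4 CPM in untreated cells. Its treated libraries were the closest together of the 10 genes, and none overlapped the untreated ones. The log2 change was 0.38 ± 0.07 (SE; edgeR adjusted p = 0.00151), and 0.37 without APX2009 replicate 1. AC021660.3, a gene on the same strand, shares 5.04% of the exon bases of CPOX, and how reads there were counted is not given in the sources used here. Of the 5 synthesis genes, 3 were thus called higher, 1 lower and 1 was not called. Of all tested genes, 17.2% were called higher and 17.4% lower. The calls of ALAS1, ALAD and CPOX ended when libraries were scaled by the ERCC total, at log2 changes of -0.40, 0.39 and 0.46, as the standard errors grew to 0.50, 0.52 and 0.50.

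FLVCR1, the haem exporter, which is also known as a choline transporter (ENSG00000162769, chromosome 1, 212858255 to 212899363, plus strand), had 16.5, 14.8 and 17.2 CPM in APX2009 cells and 12.7, 13.9 and 13.4 CPM in untreated cells. The groups were close but did not overlap. The log2 change was 0.27 ± 0.10 (SE; edgeR adjusted p = 0.0485), and 13 of 18 alternative analyses did not call it, among them leaving out APX2009 replicate 1 (log2 change 0.25, edgeR adjusted p = 0.0615).

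Per kilobase of exon, the order of the 10 transcripts differed between the groups mainly through HMOX1 and FECH. The length used for a gene joins all its annotated exons, 2908 bases for UROD and 4983 for ALAD, and can exceed that of any transcript present. A length set too high lowers the rank of a gene, so ranks between genes depend on this choice. Which transcripts the cells held was not tested. The same lengths were used in both groups. In APX2009 cells HMOX1 was first at 128.6 ± 52.8 CPM per kilobase and BLVRB second at 92.7 ± 10.7 (SD, n = 3), with library ranges that overlapped. ALAS1 followed at 25.2 ± 2.64, then BLVRA at 21.1 ± 0.88 and HMOX2 at 19.8 ± 0.83, which overlapped each other, CPOX at 13.7 ± 0.26 and FECH at 7.57 ± 0.87. UROD at 4.54 ± 0.56 and ALAD at 4.05 ± 0.20 overlapped, and FLVCR1 was last at 2.51 ± 0.19. In untreated cells BLVRB was first at 90.8 ± 1.70 CPM per kilobase, ahead of ALAS1 at 33.5 ± 1.5, and HMOX2 at 20.3 ± 0.043 and BLVRA at 20.2 ± 0.37 overlapped. CPOX at 10.5 ± 0.46, UROD at 4.89 ± 0.21 and ALAD at 3.20 ± 0.095 came next, followed by HMOX1 in eighth place at 2.47 ± 0.10. FLVCR1 at 2.07 ± 0.090 and FECH at 1.84 ± 0.14 overlapped at the end. HMOX1 thus stood first of 10 in APX2009 cells and eighth in untreated cells, and FECH seventh and last.

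Another 28 genes of haem handling were tested where counts allowed. They were listed from general knowledge but with earlier results of these data known, so their counts support nothing by themselves. Of these, 26 were tested, 9 were called higher and 4 lower, against 17.2% and 17.4% of all tested genes, and the median log2 change was 0.14. Without APX2009 replicate 1, an alternative chosen after the data were seen, the numbers were 11 and 5. ALAS2, the erythroid form of the first enzyme, and HPX, the plasma haem carrier, did not reach the filter. The synthesis enzyme genes UROS and PPOX were not called, with log2 changes of 0.16 and 0.04 (edgeR adjusted p = 0.1000 and 0.837).

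The genes called higher include partners of haem oxygenase and carriers of porphyrins. POR, the reductase that passes electrons to haem oxygenases and to cytochromes P450, had 354.6, 414.9 and 498.0 CPM in APX2009 cells and 173.5, 183.3 and 180.3 CPM in untreated cells, a 2.36-fold rise (edgeR adjusted p = 2.44e-05). ABCG2, an efflux pump of drugs and porphyrins, had 33.9, 32.0 and 32.9 CPM in APX2009 cells and 11.1, 10.5 and 10.9 CPM in untreated cells, 3.04-fold higher (edgeR adjusted p = 4.35e-07). Both were higher in every treated library, ABCG2 with a narrower spread than POR. ABCB6, a porphyrin transporter, rose 1.96-fold, HCCS, which attaches haem to cytochrome c, 1.56-fold, and SLC48A1, a haem carrier of the lysosomal membrane, 1.39-fold. PPARGC1A, a coactivator known to induce ALAS1 in mouse liver, rose 1.46-fold, SLC46A1, a folate carrier that can also transport haem, 1.27-fold, and PGRMC2, which encodes a haem-binding membrane protein, 1.17-fold. The call of PGRMC2 was near the threshold (edgeR adjusted p = 0.0459), and its highest value, 68.8 CPM, was in APX2009 replicate 1.

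UGT1A1, which conjugates bilirubin, had 68, 43 and 35 counts in APX2009 cells and 4, 3 and 19 counts in untreated cells. Its fitted log2 change was 2.44 ± 0.51 (SE; edgeR adjusted p = 0.00466), it rests on few counts, and UGT1A genes share their last exons, so the value is uncertain. Called lower were LONP1, a mitochondrial protease that degrades ALAS1 protein, ABCB10 and SLC25A39, carriers of the mitochondrial inner membrane, and PGRMC1, a haem-binding protein of membranes. LONP1 had 163.7, 174.8 and 169.8 CPM in APX2009 cells and 256.8, 266.2 and 254.1 CPM in untreated cells, with an estimate of -0.61 ± 0.06 on the log2 scale (SE; edgeR adjusted p = 5.69e-05). The log2 changes of SLC25A39, PGRMC1 and ABCB10 were -0.34, -0.27 and -0.26.

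**Figure D4:**
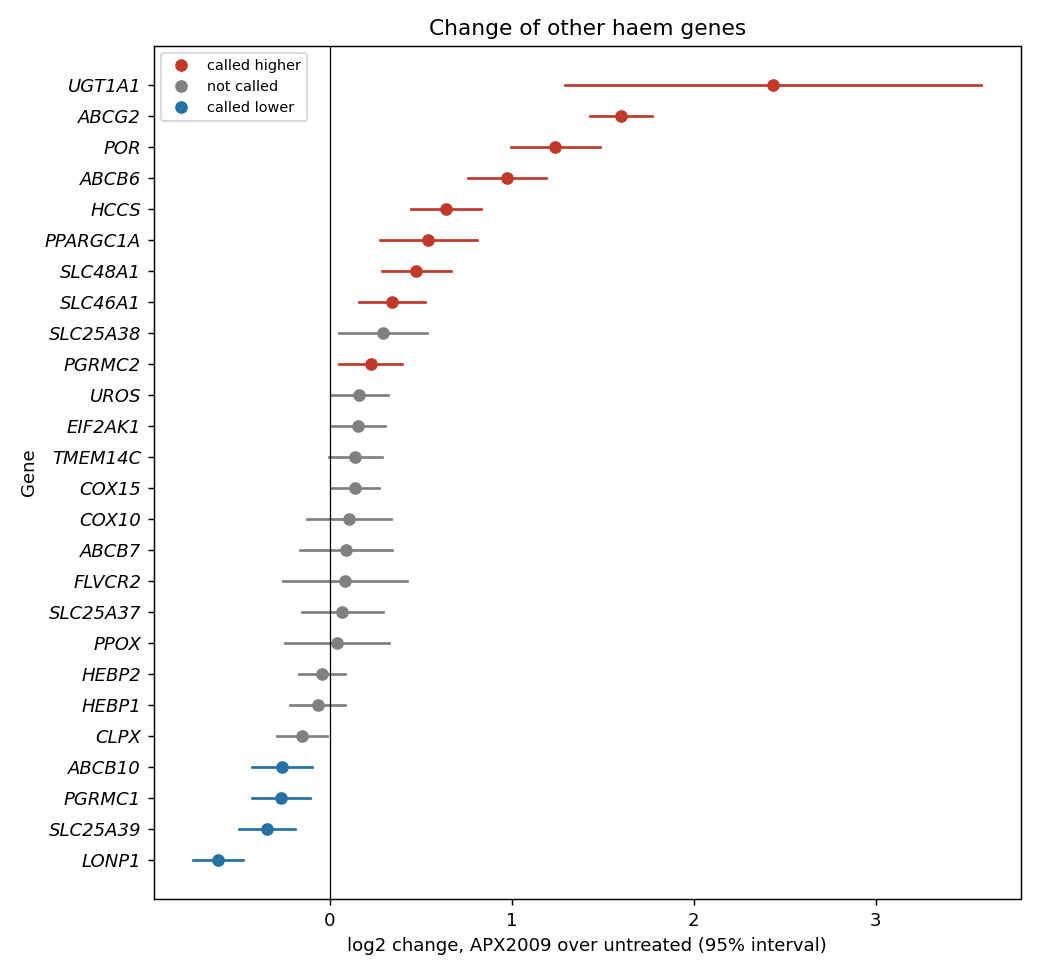
Log2 change of the 26 tested genes among the other haem genes, APX2009 over untreated, with 95% intervals from edgeR's fit, sorted by size; red marks called higher, blue called lower and grey not called. UGT1A1 at 2.44 has the widest interval, ABCG2 at 1.60 and POR at 1.24 follow, and LONP1 at -0.61 is the lowest.

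Of 24 genes for proteins that carry or bind haem, or that work with cytochrome b5 without carrying haem, 23 were tested. Of these 5 were called higher and 4 lower, near the 17.2% and 17.4% of all tested genes, and the median log2 change was 0.00, close to the 0.02 of all tested genes. Without APX2009 replicate 1 the numbers were 7 and 4. The smallest p-values belonged to CYB561, a membrane cytochrome b, at 211.1 ± 12.1 CPM in APX2009 cells and 142.1 ± 3.30 CPM in untreated cells, to NR1D1 (REV-ERB alpha), a haem-sensing nuclear receptor of the clock, at 12.98 ± 0.90 CPM in APX2009 cells and 21.1 ± 1.37 CPM in untreated cells, and to DGCR8, a haem-binding partner of DROSHA, at 39.0 ± 1.79 CPM in APX2009 cells and 50.6 ± 1.82 CPM in untreated cells (SD, n = 3 each). Their log2 changes were 0.57, -0.70 and -0.38 (edgeR adjusted p = 1.37e-04, 3.12e-04 and 0.00162).

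The genes nearest to ALAS1 by the same distance over the 6 libraries were PIGT (0.047), NKILA (0.063), the pseudogenes FAM86EP (0.065) and PHC1P1 (0.069), and ADAR (0.069). PHC1P1 was not called (edgeR adjusted p = 0.221). A change as large as that of ALAS1, in either direction, was fitted for 29.4% of tested genes, and the nearest profile to HMOX1 lay farther off, at 0.67.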

How the data were processed

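The authors deposited raw counts per Ensembl gene (58051 rows) and per ERCC spike-in (92 rows) for 6 poly(A)-enriched libraries. Per the submitters' processing notes, Trimmomatic 0.36, STAR 2.5.2b, featureCounts and Subread 1.5.2 were used on GRCh38; the sources used here do not give the annotation release, strand setting or filters. ERCC rows held 0.557% of all counts and stayed out of library sizes and tests. GENCODE 29 matched 57447 IDs and gave symbols, coordinates and union exon lengths.

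Genes were filtered with filterByExpr, scaled by TMM and fitted on treatment with edgeR 4.0.16 (R 4.3.3), with Benjamini-Hochberg adjustment over 14773 genes. CPM use TMM-scaled library sizes; log2 CPM use a prior count of 2. SE come from the F statistic, and 95% intervals from its degrees of freedom. The biological coefficient of variation was 10.3%. Replicates within a group differed beyond sampling noise. The fit was tested on simulated counts. Genes are named by rule: members, APEX1 and the regulators and stress genes, other haem genes where called, haem proteins by the 3 smallest p, and the 5 nearest profiles. Outside that rule, the other haem genes UROS and PPOX, not called, and ALAS2 and HPX, not tested, are also named. Members and lists were chosen with earlier results of these data known. A gene listed at first among the other haem genes is not reported here. Alternatives, including DESeq2 1.42.0 and limma 3.58.1 (voom), are given in the closing section. Figures used matplotlib 3.10.9.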

Additional observations from a re-analysis of the deposited data

How the results depend on the processing

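HMOX1, FECH and the 4 members that were not called kept their side of the threshold under 18 of 18 alternatives, with log2 changes of 5.31 to 5.88 for HMOX1 and 1.94 to 2.11 for FECH. With the ERCC total as scale, calls were lost for ALAS1 (-0.40), ALAD (0.39), CPOX (0.46) and FLVCR1 (0.35); sizes were close to those with TMM, standard errors were larger, and 2 members were called higher, 0 lower and 136 genes in all, 129 of them higher. Against a 1.5-fold change the same 4 were not called (-0.41, 0.34, 0.38 and 0.27), with 2 members higher, 0 lower and 606 genes in all. At an adjusted p under 0.01, FLVCR1 (0.27) was not called and 3057 genes were. FLVCR1 was also lost with RLE factors (0.27), upper-quartile factors (0.27), DESeq2 (0.27) and no filter (0.26), and in 5 of the 6 analyses that left out a library, with values of 0.23 to 0.31; without APX2009 replicate 2 it was called, at 0.34. The cause was not tested. Leaving out a library gave 4 or 5 members higher, 1 lower and 3503 to 5709 genes in all. The range of HMOX1 was then 0.077 to 0.97 log2 CPM in APX2009 cells, lowest without APX2009 replicate 3, and 0.0041 to 0.10 in untreated cells, lowest without untreated replicate 2. With the replicate number as a block, 5501 genes were called and FLVCR1 was not (0.27, edgeR adjusted p = 0.0596). Same-numbered libraries deviated together with correlations of 0.14, 0.0782 and 0.00599, and 4 of 6 libraries correlated best with their own number. With 3 libraries in each group, these values cannot settle whether the numbers pair the samples. Of the members not called, HMOX2 changed sign with the ERCC total (0.0084) and BLVRB without APX2009 replicate 3 (-0.04). Low counts limit the precision of UGT1A1, which had 35 to 68 counts in APX2009 cells and 3 to 19 in untreated cells.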
